A study of Mus musculus with 2 samples.

Results

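The transcription factors that set rostral against caudal identity in the early mouse brain were examined in forebrain tissue at embryonic day 10.5. The set comprised 10 genes chosen by name and matched by Ensembl identifier: Otx1, Otx2, Gbx2, En1, En2, Fezf1, Fezf2, Irx2, Irx3 and Irx5. They are 10 of the 43346 annotated gene rows in the tables, and the rule that lists them uses no measured value, although earlier results of these data were known when it was written. Total RNA was sequenced from 2 libraries of a single group, strain B6NCrl, for which the labels give no allele or treatment. Replicate 1 was made from a pool of 69 forebrains and replicate 2 from a pool of 51, with both sexes in each pool and 10 ng of RNA in each library. No other brain region, stage or genotype was analysed here, so opposing factors were compared with each other inside a library and each factor was compared between the pools.

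Otx1 and Otx2 are homeodomain factors of the forebrain and midbrain, while Gbx2 is a homeodomain factor of the anterior hindbrain. Otx2 and Gbx2 repress each other, and their border positions the isthmic organizer between midbrain and hindbrain, on either side of which En1 and En2 are expressed. Further forward, the zinc finger repressors Fezf1 and Fezf2 mark the rostral forebrain and the Iroquois homeodomain factors mark the caudal forebrain, and the zona limitans, a signalling ridge in the diencephalon, forms at their interface. Gbx2 is also known from the developing thalamus, Otx2 from the retinal pigment epithelium, and Fezf1 from the olfactory epithelium.

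The gene tables held 41537304 expected counts in annotated genes in replicate 1 and 38012457 in replicate 2, of which the 10 factors took 10557 and 8762. Levels are given as TPM, a length-adjusted share of a library's transcripts on a scale common to all genes, with the lower and upper bounds that the authors deposited for each value. Regional markers were checked against the forebrain label. Of 10 telencephalic and anterior neural factors 9 reached 1 TPM in both libraries, led by Lhx2 at 91.7 and 98.3 TPM. Of 8 hindbrain and posterior markers 7 stayed under 1 TPM in both. Hoxa2, Hoxb1 and Hoxb2 had from 0 to 3 counts per library, and Hoxa3 had none in either. The tissue was not neural alone: 8 of 8 head mesenchyme markers were detected, with a summed level of 456 TPM in replicate 1 and 468 TPM in replicate 2, as were 6 of 6 surface ectoderm markers, at 107 and 102 TPM. The mesenchymal collagen gene Col3a1 was at 251 TPM in each library and Alx1 at 55.2 and 63.1 TPM, and among the epithelial genes Krt8 was at 32.8 and 30.4, Krt18 at 29.9 and 32.5 and Epcam at 26.6 and 22.7 TPM. Trp63, Cdh1 and Tfap2a lay between 3.25 and 7.11 TPM. In such whole tissue, a low level may come from few cells or from little RNA per cell, and these cannot be told apart.

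Of the 10 factors 7 reached 1 TPM in both libraries: Otx1, Otx2, Gbx2, Fezf1, Fezf2, Irx3 and Irx5. The same limit was met by 32.4% of all annotated gene rows. En1, En2 and Irx2 did not meet it. The rostral families held nearly all of the signal, with Otx taking 55.6% and Fezf 34.2% of the factors' summed TPM in replicate 1, and 52.0% and 37.1% in replicate 2.

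**Figure D1:**
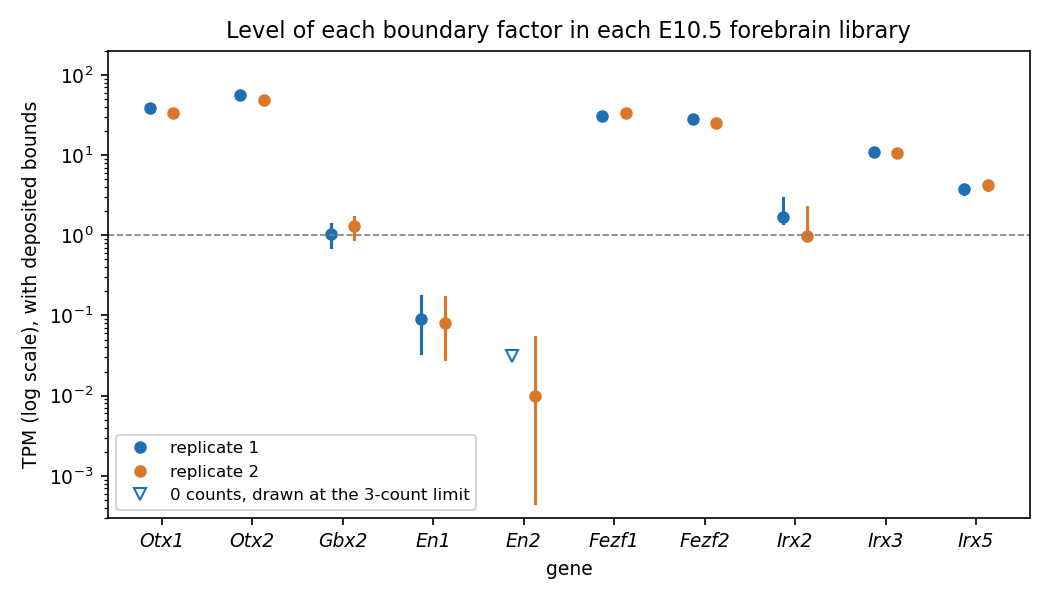
TPM of each of the 10 factors in replicate 1 (blue) and replicate 2 (orange) on a log scale, with vertical lines for the deposited TPM bounds, a dashed line at 1 TPM, and an open triangle where a library had 0 counts. Otx1, Otx2, Fezf1 and Fezf2 sit at 25 to 56 TPM in both libraries, Irx3 and Irx5 at 3.78 to 10.9, Gbx2 and Irx2 near 1, and En1 and En2 below 0.1.

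Otx2, the factor required for forebrain and midbrain to form, was the most abundant of the set. Its level (ENSMUSG00000021848.11, chr14:48657677-48673819, minus strand, GRCm38) was 56.0 TPM in replicate 1, with bounds of 52.9 to 57.7, and 48.8 TPM in replicate 2, with bounds of 45.7 to 50.7. That is a mean of 52.4 ± 5.12 TPM (SD, n = 2), and 24.0% of the genes detected in both libraries had a higher mean. Otx1, its paralog with later roles in cortex and sense organs (ENSMUSG00000005917.11, chr11:21994764-22002897, minus strand), was at 39.0 TPM (bounds 36.8 to 39.7) in replicate 1 and 33.5 TPM (31.4 to 34.2) in replicate 2. Otx2 exceeded Otx1 in both libraries with bounds that did not overlap, and the excess was 1.44-fold per unit of length in replicate 1 (95% counting interval 1.36 to 1.51) and 1.46-fold in replicate 2 (1.37 to 1.55). This ratio was the steadiest of the 12 opposing and 6 within-family ratios, with an SD of 0.0151 on the log2 scale. The leading Otx1 transcript, ENSMUST00000006071.9, held 92.2% and 93.2% of that gene's TPM.

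Otx2 is annotated with 8 transcripts in the tables, and their starts fall into 5 regions in the GENCODE M21 annotation. The leading start, at chr14 position 48665106, carried a single transcript, ENSMUST00000118578.3, with 62.9% of the gene's TPM in replicate 1 and 60.8% in replicate 2. A region up to 2538 bases upstream, between positions 48667508 and 48667644, carried 4 transcripts with 32.7% and 34.1% together, or 33.4% ± 0.962 (SD, n = 2). Most of this was ENSMUST00000119070.3, at 22.6% and 22.1%. The 4 together were at 18.3 and 16.6 TPM, so they alone would stand above Irx3. The other 3 start regions held at most 3.61% each. The shares are the authors' estimates from reads that transcripts have in common, and the leading transcript is 2284 bases long in the tables but 2144 in GENCODE M21, so its start in the authors' annotation may differ.

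**Figure D2:**
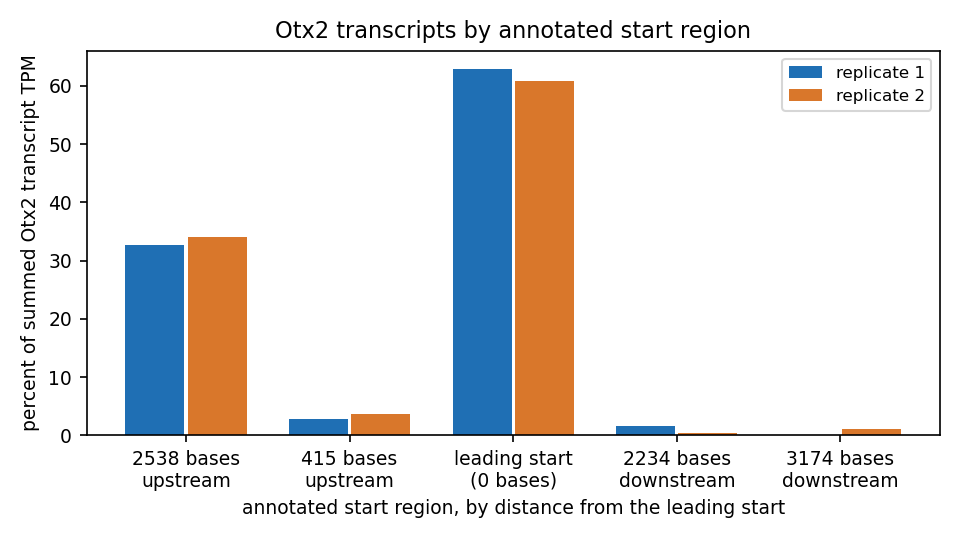
Percent of the summed Otx2 transcript TPM that falls to each annotated start region (y axis), by distance in bases of each region's farthest upstream start from the leading start (x axis), for replicate 1 (blue) and replicate 2 (orange). The leading start holds 62.9% and 60.8% and the region up to 2538 bases upstream 32.7% and 34.1%.

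The leading Otx2 start and the upstream region together divide most of the most abundant factor's transcripts. Promoter windows are shown for that start, for both RefSeq starts of the upstream region, and Gbx2, the opponent of Otx2 near the detection limit. Each runs from 250 bases before to 50 bases after a start, 5′ to 3′ on the gene's strand, from RefSeq on GRCm38.p6, whose leading Otx2 start is at position 48665109. Windows were found for 7 of the 10 factors. Capitals mark matches on either strand to TAATCC, the sequence Otx factors prefer, TAATTA, a core that many homeodomain factors bind, TATAAA, the TATA box, and CACGTG, the E-box. Of these motifs TAATTA and CACGTG read the same on both strands, and no matches overlapped in the windows shown.
Otx2 leading start, chr14:48665060-48665359, minus strand: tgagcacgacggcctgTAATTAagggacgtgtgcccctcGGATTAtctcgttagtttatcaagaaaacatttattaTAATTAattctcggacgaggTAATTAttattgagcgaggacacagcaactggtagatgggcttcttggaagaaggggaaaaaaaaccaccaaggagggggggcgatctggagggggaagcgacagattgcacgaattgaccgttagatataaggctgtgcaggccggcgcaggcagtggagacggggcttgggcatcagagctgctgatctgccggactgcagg
Otx2 upstream region, start at 48667508, chr14:48667459-48667758, minus strand: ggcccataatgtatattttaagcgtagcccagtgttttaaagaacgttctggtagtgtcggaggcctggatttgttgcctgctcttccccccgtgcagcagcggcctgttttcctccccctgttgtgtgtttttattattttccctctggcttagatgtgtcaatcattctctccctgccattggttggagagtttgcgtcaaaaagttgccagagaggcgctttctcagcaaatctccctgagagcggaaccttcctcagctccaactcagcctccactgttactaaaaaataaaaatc
Otx2 upstream region, start at 48667644, chr14:48667595-48667894, minus strand: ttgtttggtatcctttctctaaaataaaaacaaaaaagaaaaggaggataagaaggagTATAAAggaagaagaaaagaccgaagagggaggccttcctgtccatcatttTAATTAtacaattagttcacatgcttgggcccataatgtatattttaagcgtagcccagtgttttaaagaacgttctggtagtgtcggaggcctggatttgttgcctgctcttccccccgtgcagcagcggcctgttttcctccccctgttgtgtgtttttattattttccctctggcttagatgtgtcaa
Gbx2, chr1:89931127-89931426, minus strand: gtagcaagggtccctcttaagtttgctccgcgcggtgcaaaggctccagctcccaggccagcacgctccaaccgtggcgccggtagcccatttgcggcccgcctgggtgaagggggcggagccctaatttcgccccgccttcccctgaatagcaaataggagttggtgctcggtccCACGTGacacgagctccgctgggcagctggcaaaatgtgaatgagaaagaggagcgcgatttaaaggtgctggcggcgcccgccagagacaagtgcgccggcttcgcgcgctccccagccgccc
The window of the leading Otx2 start held 3 matches to TAATTA, a motif present in 5.29% of 32544 promoter windows of the same length, and 1 to TAATCC, present in 7.06%. It also had 16 CpG dinucleotides, against a median of 7 over those windows. Of the upstream windows, which overlap each other, that of the start at 48667508 had no match to any of the 4 motifs and 8 CpG dinucleotides. That of the start at 48667644 held 1 match to TAATTA and 1 to TATAAA, a motif found in 13.6% of windows, and had 6 CpG dinucleotides. The Gbx2 window was richer in CpG, with 27, and held 1 match to CACGTG, found in 7.17% of windows. A match is a description of the letters and not a binding site.

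Gbx2, the anterior hindbrain factor, stood close to the detection limit. Its level (ENSMUSG00000034486.8, chr1:89927956-89931179, minus strand) was 1.03 TPM in replicate 1, with bounds of 0.722 to 1.4, and 1.29 TPM in replicate 2, with bounds of 0.905 to 1.71. These values rest on 46.1 and 55.3 expected counts, and 99.1% of the genes detected in both libraries had a higher mean. Part of that signal was assigned to an incompletely spliced form. A retained-intron transcript, ENSMUST00000187633.1, was given 45.0% of the gene's TPM in replicate 1 and 34.5% in replicate 2, and the coding transcript ENSMUST00000036954.8 the other 55.0% and 65.5%. The retained-intron share rests on 14.3 and 12.4 estimated counts. Its TPM bounds were wide, 0.0938 to 0.957 in replicate 1 and 0.000314 to 0.998 in replicate 2, so the split is uncertain. Gbx2 also overlaps D130058E05Rik, a noncoding gene on the opposite strand, by 946 bases, and the sources used here do not say whether reads were assigned by strand. D130058E05Rik was given 56.9 and 33.7 counts, and each library's counts for the pair add up to whole numbers within 0.005, 103 and 89, so some reads were divided between them by estimation.

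En1 and En2, the Engrailed homeodomain factors of midbrain and anterior hindbrain, were at the bottom of the range. En1 (ENSMUSG00000058665.8, chr1:120602418-120607992, plus strand) had 6 counts in replicate 1 and 5 in replicate 2, or 0.09 and 0.08 TPM, with upper bounds of 0.173 and 0.169. En2 (ENSMUSG00000039095.8, chr5:28165694-28172166, plus strand) had 0 counts in replicate 1, which allows a level of up to 0.0315 TPM at 3 counts, and 1 count in replicate 2, with an upper bound of 0.0544 TPM. En1 bounds lay above those of En2 in replicate 1 and overlapped them in replicate 2, so their order was not detectable at this depth.

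The Otx genes exceeded Gbx2 and the Engrailed genes by a wide margin in both libraries. Summed, Otx1 and Otx2 reached 95.03 TPM in replicate 1 and 82.24 in replicate 2, while Gbx2, En1 and En2 together reached 1.12 and 1.38. With 0.1 TPM added to each sum, the log2 ratio was 6.28 and 5.80, a mean of 6.04 ± 0.344 (SD, n = 2) or 65.9-fold. The smallest p that an exact two-sided sign-flip test over 2 libraries can give is 0.5, so the ratios carry no p-value. The size of this ratio depends on the handling of very low values: the mean was 5.31 when 1 TPM was added, and 5.22 when every read of D130058E05Rik was given to Gbx2, an alternative chosen after seeing the data.

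All 6 single Otx pairs had the Otx gene higher in both libraries, with bounds that did not overlap. Against Gbx2, Otx1 was 38.0-fold higher per unit of length in replicate 1 (95% counting interval 28.5 to 52.2) and 26.0-fold in replicate 2 (20.0 to 34.8). Otx2 was 54.6-fold above Gbx2 in replicate 1 (40.9 to 74.9) and 37.8-fold in replicate 2 (29.1 to 50.7). For both Otx genes the intervals of the libraries overlap. Whether the lower ratio to Gbx2 in replicate 2 exceeds counting error was not tested. Against En1 the ratios were 454-fold and 422-fold for Otx1, and 652-fold and 614-fold for Otx2, with intervals as wide as 263 to 1890 because so few En1 reads were counted. Against En2 only a lower limit can be given for replicate 1, at least 1240-fold for Otx1 and at least 1780-fold for Otx2, taking 3 counts for the absent gene. In replicate 2, a single En2 count gave an interval of 515 to 113000 for Otx1 and 750 to 165000 for Otx2.

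**Figure D3:**
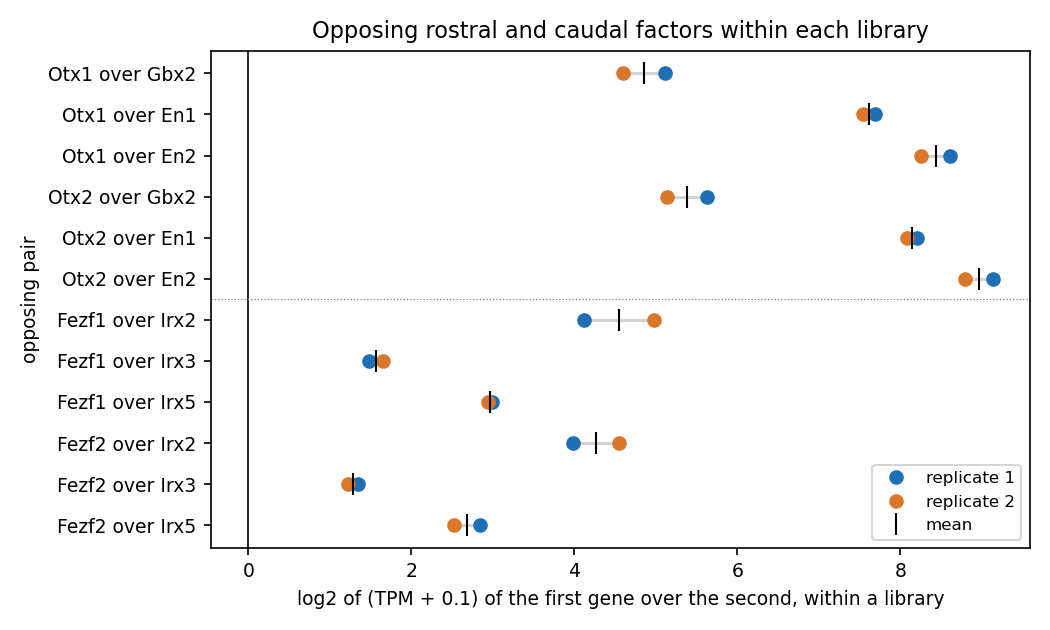
Log2 ratio of the first gene to the second, with 0.1 TPM added to each, for the 12 opposing pairs in replicate 1 (blue) and replicate 2 (orange), with a black tick at the mean. All points lie right of 0, from a mean of 1.29 for Fezf2 over Irx3 to 8.15 for Otx2 over En1 and 8.96 for Otx2 over En2, where the En2 points are set mainly by the added 0.1 TPM.

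The 2 Fezf genes were close to each other and to Otx1. Fezf1 (ENSMUSG00000029697.5, chr6:23245044-23248362, minus strand) was at 30.6 TPM in replicate 1, with bounds of 28.6 to 31.3, and 33.6 TPM in replicate 2, with bounds of 31.3 to 34.3. Fezf2, later the factor that specifies corticospinal neurons (ENSMUSG00000021743.5, chr14:12342094-12348189, minus strand), was at 27.8 TPM (bounds 26.0 to 28.6) in replicate 1 and 25.0 TPM (23.2 to 25.8) in replicate 2. Fezf1 exceeded Fezf2 in both libraries, but by unequal amounts: 1.10-fold per unit of length in replicate 1 (95% counting interval 1.03 to 1.17) and 1.34-fold in replicate 2 (1.25 to 1.44). These intervals do not overlap. Their sum differed little between the libraries, at 58.4 and 58.6 TPM, a mean of 58.5 ± 0.134 (SD, n = 2). The tables hold a single transcript for each Fezf gene.

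Irx3, an Iroquois factor of the caudal forebrain, was the highest of its family. Its level (ENSMUSG00000031734.12, chr8:91798525-91802067, minus strand) was 10.9 TPM in replicate 1, with bounds of 9.94 to 11.5, and 10.7 TPM in replicate 2, with bounds of 9.65 to 11.2. Irx5, its neighbour at a distance of 556 kb (ENSMUSG00000031737.10, chr8:92357625-92376286, plus strand), was at 3.78 TPM (3.25 to 4.18) and 4.28 TPM (3.68 to 4.72). Irx3 thus exceeded Irx5 by 2.88-fold per unit of length in replicate 1 and 2.49-fold in replicate 2, with bounds apart in both. Nearly all Irx3 signal lay in the transcript ENSMUST00000175795.2, with 98.4% in replicate 1 and all of it in replicate 2. Irx3 also overlaps an antisense gene, Irx3os, by 1653 bases. Irx3os was given 41.1 and 23.1 counts, against 752 and 664 for Irx3, and these too add up to whole numbers, 793 and 687.

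Irx2, which lies in the other Iroquois cluster (ENSMUSG00000001504.10, chr13:72628820-72634198, plus strand), was at 1.67 TPM in replicate 1, with bounds of 1.41 to 2.89, and 0.97 TPM in replicate 2, with bounds of 0.938 to 2.25. Its 74 and 52 counts differed less than its TPM did. The authors' effective length for the gene was 1605 bases in replicate 1 and 2146 in replicate 2. The 2625-base transcript ENSMUST00000074372.5 was given 49.5% of the gene in replicate 1 and 80.2% in replicate 2. A 927-base retained-intron transcript, ENSMUST00000163393.1, was given 33.3% and 8.13%, on 12.7 and 1.63 counts. The 559-base ENSMUST00000172353.2 was given 17.2% and 11.7%, on 3.66 and 1.31 counts. The shorter transcripts thus had a larger share in replicate 1 than in replicate 2, on few counts. Over the 2526 bases of effective length of the longest of these in both libraries, Irx2 was at 1.06 and 0.825 TPM. That length, chosen after seeing the data, leaves Irx2 on the same sides of 1 TPM in the libraries.

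The 2 Iroquois clusters differed in the same direction when all their genes were summed. On chromosome 8, Irx3, Irx5 and Irx6 summed to 14.8 TPM in replicate 1 and 14.9 TPM in replicate 2. On chromosome 13, Irx1, Irx2 and Irx4 summed to 2.77 and 1.97 TPM. Of the genes outside the set, Irx4 was at 0.91 and 0.79 TPM and Irx1 at 0.19 and 0.21 TPM, while Irx6 had 17 counts in replicate 1 and 1 in replicate 2. The remaining relatives were also below 1 TPM in both libraries, with Gbx1 at 0.07 and 0.18 TPM and the photoreceptor factor Crx at 0.06 and 0.23 TPM.

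Fezf exceeded Irx by a much smaller margin than Otx exceeded Gbx2 and En. The Fezf sum of 58.4 and 58.6 TPM stood against an Irx sum of 16.3 TPM in replicate 1 and 15.9 TPM in replicate 2. The log2 ratio was 1.83 and 1.88, a mean of 1.85 ± 0.0304 (SD, n = 2) or 3.62-fold. All 6 single pairs had the Fezf gene higher in both libraries, with bounds that did not overlap. The narrowest was Fezf2 over Irx3, at 2.56-fold per unit of length in replicate 1 (95% counting interval 2.35 to 2.79) and 2.35-fold in replicate 2 (2.14 to 2.58), and Fezf1 over Irx3 was close to it at 2.81-fold and 3.15-fold. Over Irx5, Fezf1 was 8.09-fold and 7.85-fold higher and Fezf2 was 7.36-fold and 5.84-fold higher. The widest was Fezf1 over Irx2, at 18.4-fold in replicate 1 (14.6 to 23.5) and 34.6-fold in replicate 2 (26.3 to 46.5), and it is also the opposing pair whose libraries differed most, with the change in effective length of Irx2 included in it.

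Ordered by mean level, the set ran Otx2, Otx1, Fezf1, Fezf2, Irx3, Irx5, Irx2, Gbx2, En1 and En2. Most steps were kept in both libraries, including the 16.95 and 14.35 TPM between Fezf2 and Irx3 and the 7.10 and 6.37 TPM between Irx3 and Irx5. In 2 places neighbours exchanged order between libraries. Otx1 was 8.43 TPM above Fezf1 in replicate 1 and 0.14 TPM below it in replicate 2, a mean difference of 4.15 ± 6.06 TPM (SD, n = 2), so their order is within the spread. Irx2 and Gbx2 likewise differed by 0.64 and -0.32 TPM.

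Between the pools, the 8 factors that averaged at least 10 counts had ratios of TMM-scaled counts from 0.759 to 1.29. None was past 1.5-fold, a threshold passed by 9.32% of the 17174 genes with such counts and by 11 of the 7421 with a mean count of 1000 or more, so a count of 0 of 8 is near the background. The ratio of TPM with 0.1 added, in place of counts, put Irx2 past it. Bounds did not overlap between the pools for 3 of the 8, Otx1, Otx2 and Fezf2, all higher in replicate 1. The share over the 17174 genes was 11.4%, and 17.3% over the 7421 deeper genes, the class that holds these 3 and Fezf1.

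Otx2 had a ratio of replicate 1 to replicate 2 of 1.19 (95% counting interval 1.13 to 1.26) and Otx1 of 1.17 (1.11 to 1.24). Both lie outside the range of 0.894 to 1.12 that holds the middle of the 7421 deeper genes from the 5th to the 95th percentile. Fezf2, at 1.12 (1.05 to 1.21), was at its edge, and Fezf1 went the other way at 0.919 (0.861 to 0.980), inside it. Irx3 and Irx5 had ratios of 1.03 (0.927 to 1.15) and 0.891 (0.743 to 1.07), Irx2 of 1.29 (0.896 to 1.88) and Gbx2 of 0.759 (0.503 to 1.15), so no difference was detectable for these 4 at their counts. The median over the 8 factors was 1.08, with 5 of 8 higher in replicate 1, against 1.00 over all 17174 genes. With 1 library per pool these ratios have no replicate check.

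**Figure D4:**
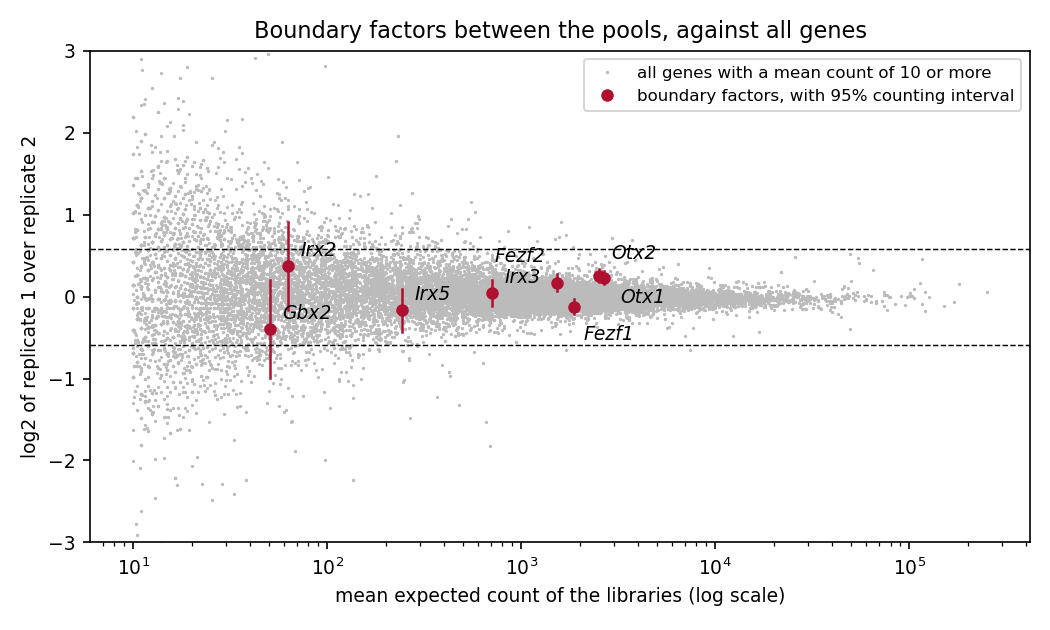
Log2 ratio of replicate 1 to replicate 2 (y axis) against mean expected count on a log scale (x axis) for all genes averaging at least 10 counts (grey) and the 8 factors among them (red, with 95% counting intervals), with dashed lines at 1.5-fold and 16 grey points beyond the axis limits of 3 and -3 not drawn. The 8 factors lie between the lines, Otx1 and Otx2 at 0.23 and 0.26 on the upper side of the cloud and Fezf1 at -0.12 on the lower.

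Some genes listed for optic tissues and for the regions next to these borders also differed between the pools. The optic list, whose tissue expresses Otx2, was lower in replicate 1: it summed to 16.5 TPM there and to 40.5 TPM in replicate 2, 5 of its 7 genes were lower past 1.5-fold, against 9.32% of all genes in either direction, and Pmel, a melanosome protein gene, was at 5.82 and 20.8 TPM. Six6 (2.71 and 6.85 TPM) and Dct (4.43 and 6.58 TPM) were also lower there. Mitf was at 1.65 and 1.71 TPM, but on its 143 and 180 counts the ratio of replicate 1 to replicate 2 was 0.723. Otx2 itself was higher in replicate 1. The isthmus list summed to 74.9 TPM in replicate 1 and 54.9 TPM in replicate 2, a difference that lay mostly in Fgf17, at 33.2 and 18.5 TPM. Most of each sum was Fgf17 and Fgf8 (30.1 and 26.1 TPM), and Fgf8 is also made at the anterior edge of the telencephalon. Pax2, Pax5 and Pax8 were under 1 TPM in both libraries. How much of the sum came from isthmic tissue was not tested. Fgf17, Wnt1 and Pax8 were higher past 1.5-fold in counts, whereas Pax2, Lmx1b and Fgf18 were lower in replicate 1, and the list's median ratio was 1.16. Pax8 had 34 and 10 counts but 0.47 and 0.37 TPM, so in TPM it was not past 1.5-fold. Of the 8 zona limitans and thalamus genes Olig3, Lhx9 and Barhl2 were past it in the same direction, led by the thalamic progenitor factor Olig3 at 6.96 and 1.79 TPM. Sox14, Shh and Foxp2 were lower in replicate 1, and the median ratio of that list was 1.05. In the telencephalic list Hesx1 (ratio 1.63) was higher and Rax (0.358) lower past 1.5-fold, and in the midbrain list Foxa2 (2.73) was higher. The part of these tissues in the Otx and Fezf differences was not tested.

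**Figure D5:**
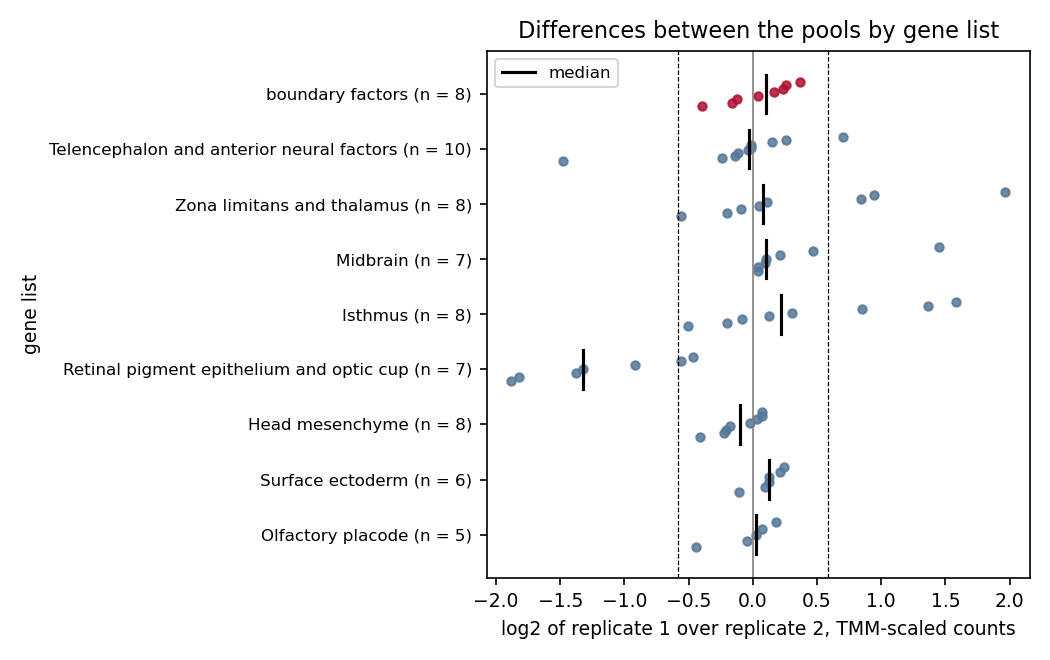
Log2 ratio of replicate 1 to replicate 2 for each gene averaging at least 10 counts, by gene list (rows), with a black tick at each list's median and dashed lines at 1.5-fold. The 8 boundary factors stay between the lines, near the background, since 9.32% of the 17174 genes with such counts pass them. Of the optic genes 5 of 7 lie below the lower line, and 3 genes each of the zona limitans and isthmus lists lie above the upper one. Of the telencephalic list 1 gene lies above and 1 below the lines, and of the midbrain list 1 lies above.

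Genes that work with the factors, or mark their borders, were examined by list. Of the genes listed for the isthmus, 5 of 9 reached 1 TPM in both libraries. Fgf8, the organizer's main signal but one also made at the anterior edge of the telencephalon, was at 30.1 and 26.1 TPM, with Sp5 at 5.06 and 4.13 TPM and Fgf18 at 3.01 and 3.23 TPM. The isthmic Pax genes were low alongside Gbx2 and the Engrailed genes: Pax2 was at 0.48 and 0.70 TPM and Pax5 at 0.55 and 0.21 TPM, and Pax8 was likewise under 1 TPM. Of 7 midbrain genes 6 were detected, among them Meis2 at 27.5 and 27.9 TPM, Pax3 at 11.0 and 10.4 TPM, Lmx1a at 5.37 and 4.58 TPM and Pax7 at 2.00 and 1.89 TPM. The floor plate factor Foxa2 was the exception, at 0.57 and 0.14 TPM. En1 and En2, likewise factors of the midbrain, were at 0.09 TPM or less in both libraries. Whole-forebrain libraries do not show where a listed gene was made, so detection of listed genes is not detection of their region.

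Of the genes listed for the thalamus and the zona limitans, where Fezf and Irx territories meet, all 8 reached 1 TPM in both libraries. Tcf7l2, a Wnt effector prominent in the thalamus, led at 86.8 and 80.6 TPM, above any boundary factor, and Foxp2 (14.8 and 16.2 TPM), Dbx1 (12.9 and 12.1 TPM) and Lhx9 (7.34 and 4.47 TPM) followed. Shh, the signal of the zona limitans, was at 2.04 and 2.37 TPM. Of the telencephalic list, Lhx2, Nr2e1 (68.6 and 74.9 TPM) and Pax6 (64.9 and 67.9 TPM) stood above Otx2, and Emx2 (40.8 and 37.7 TPM) stood near Otx1. Shh was named after its values were seen.

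The Groucho family was detected for 5 of 5 genes. Its long members, the Tle genes, encode corepressors through which Otx, Gbx, Engrailed and Fezf proteins are known to repress. Aes, a short family member, was at 196 and 199 TPM, Tle3 at 36.6 and 38.9 TPM, Tle1 at 33.8 and 33.5 TPM, Tle4 at 19.1 and 18.3 TPM and Tle2 at 3.65 and 3.51 TPM. None was past 1.5-fold between the pools. Among genes known to be bound or repressed by Fezf factors, 4 of 4 were detected: the Notch effector Hes5 at 249 and 232 TPM, the proneural factors Neurog2 at 23.7 and 17.3 TPM and Neurog1 at 15.9 and 11.7 TPM, and the axon guidance receptor Robo2 at 10.7 and 11.1 TPM. Olfactory placode genes, from a tissue that also makes Fezf1, were detected for 4 of 6, with Eya2 at 15.3 and 20.7 TPM, Dlx5 at 15.6 and 14.9 TPM and Dlx3 at 2.97 and 3.08 TPM. Sp9 and Foxi3 were under 1 TPM in both libraries. How much of the Fezf1 signal came from placode or from neural tissue was not tested.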

How the data were processed

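Forebrain total RNA of 2 libraries was analysed as a single group. The authors deposited, per library, a gene and a transcript table of expected counts (estimated reads, not normalized, per the file headers), TPM with lower and upper bounds, FPKM with bounds, and each transcript's percent of its gene. The notes deposited with the samples give mm10 and annotation M4. The sources used here do not give the aligner, counter, read strand or level of the bounds. Spike-ins held 7.83% and 7.01% of the deposited TPM.

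Symbols were matched for 42462 identifiers from a gene name table. GENCODE M21 on GRCm38 gave the 1-based coordinates. Ratios between pools used expected counts plus 0.5 over library sizes scaled by TMM in edgeR 4.0.16 (R 4.3.3), over genes with 10 or more counts in each library; DESeq2 1.42.0 size factors were an alternative. Ratios between genes used counts per effective length, and intervals are 95% exact binomial intervals, covering counting error only. Remaining steps ran in Python 3.11.15 with scipy 1.17.1, and the computations were tested on simulated data.

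The members and lists were chosen with earlier results of these data known. All 10 members are named, with up to 4 genes of highest mean TPM and up to 4 under 1 TPM per list, lists of 6 or fewer genes whole, and, for members with several transcripts, the leading transcript and those at 10% or more in both libraries. Some genes that the rule names are left out of the text and not reported here. Genes past 1.5-fold named by count were chosen after their values were seen. Alternatives covered the added TPM, detection limit, length, scaling, bounds and single libraries.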

Additional observations from a re-analysis of the deposited data

How the results depend on the processing

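No alternative reversed a direction. The log2 ratio of Otx to Gbx2 and En was 6.04, and it was 5.31 with 1 TPM added, 6.41 from counts with no division by length, and 5.22 with all D130058E05Rik reads given to Gbx2. The log2 ratio of Fezf to Irx was 1.85, and it was 1.80 with 1 TPM added, 1.80 from the deposited posterior mean TPM, 1.74 from counts with no division by length, 1.81 with all Irx3os reads given to Irx3, and 1.89 with Irx2 at a fixed length. Leaving out either library gave 5.80 to 6.28 for Otx and 1.83 to 1.88 for Fezf. The count of detected factors, 7, ran from 6 to 8 over detection limits of 0.5 and 2 TPM, posterior mean TPM, lower bounds and single libraries. The ratio of TPM with 0.1 added gave 1 factor past 1.5-fold between pools, Irx2, against 0 in the counts. The 3 factors with bounds apart stayed 3 in number under FPKM bounds and a mean count of 50. Leaving out a library gives no value for the comparisons between pools, and no paired analysis was possible because there is a single group. Depth limits En1, En2, Gbx2 and Irx2, which rest on at most 74 counts per library.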

Other observations

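Noncoding genes next to the factors were also measured. Crnde, which lies 1504 bases from Irx5 on the opposite strand, was at 12.7 TPM in replicate 1 and 14.2 TPM in replicate 2, above Irx5 itself at 3.78 and 4.28 TPM. On counts the genes were close, with 227 and 222 for Crnde and 241 and 246 for Irx5, so the difference in TPM comes from the division by length. Otx2os1 lies on the opposite strand to Otx2 and overlaps its GENCODE M21 gene span by 5112 bases. Its near end, at position 48668708, is upstream of position 48667644, the farthest upstream M21 start of the quantified Otx2 transcripts. The overlap is therefore not with those transcripts as M21 places them. Otx2os1 was at 2.90 and 1.66 TPM, a ratio of replicate 1 to replicate 2 of 1.65 on 53 and 29 counts, while Otx2 had a ratio of 1.19. Gm20554, 255 bases from Irx2, had 1 count in replicate 1 and 0 in replicate 2. Ehbp1, which lies 2930 bases from Otx1 on the same strand, was at 10.6 and 8.45 TPM, with a ratio of 1.32 beside 1.17 for Otx1.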
